A study of Homo sapiens with 43 samples.

Results

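The Brn2 binding sites described here are 1779 sites of the lung squamous cell carcinoma line LK2 at which neither a Sox2 peak of the LK2 background nor a Brn2 peak of the line NCI-H520 was called. They were chosen from the peak lists of chromatin immunoprecipitation with sequencing (ChIP-seq) and make up 36.9% of the 4819 LK2 Brn2 peaks on chromosomes 1 to 22 and X. A peak entered when it shared not 1 bp with any Sox2 peak of LK2 or of LK2_GFP, a derivative of LK2, and not 1 bp with the NCI-H520 Brn2 list. They are called Sox2-free sites (LK2-only, no Sox2 in the plots), and the name refers to called peaks only. The remaining LK2 Brn2 peaks served for comparison, as 2391 Sox2-bound sites (in LK2 only, overlapping Sox2 of LK2 or LK2_GFP) and 649 shared sites (overlapping a Brn2 peak of NCI-H520). Of the 649 shared sites, 544 also overlapped no Sox2 peak of LK2 or LK2_GFP. Absence of Sox2 thus does not set the Sox2-free sites apart from most shared sites.

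Brn2 is a POU-domain transcription factor of neural progenitors and neurons. In neural cells it often acts together with Sox2, an HMG-box factor of stem and progenitor cells that binds beside POU factors on composite DNA elements, and it can also bind DNA without that partner. Acetylation of histone H3 at lysine 27 (H3K27ac) marks active promoters and enhancers, so the mark at a bound site tells whether the surrounding chromatin is active in a given line.

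The study profiled established lung squamous carcinoma lines grown in RPMI-1640 with fetal bovine serum. H3K27ac was mapped in 13 unmodified lines, LK2 and NCI-H520 (the lines with both Sox2 and Brn2 ChIP, with 2 H3K27ac libraries each), HCC95, KNS62 and HCC2814 (with Sox2 ChIP), and 8 lines with H3K27ac alone (HCC2279, HCC2450, NCI-H2887, LC-1/SQSF, HARA, EBC-1, SQ-1, Calu-1). H3K27ac and Sox2 were also mapped in LK2_DNp63 and LK2_GFP, and p63, a transcription factor that basal cells of squamous epithelia depend on, in LK2_DNp63. The labels name these derivatives of LK2 and give no clone, vector or dose for them. Brn2 chromatin was fixed with an additional cross-linker and treated with micrococcal nuclease, unlike that for the other targets. Brn2 was mapped in 1 library per line, and no label says that libraries came from separate cultures.

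The H3K27ac lists held 16470 to 43480 peaks, the Sox2 lists 4217 to 14048, and the p63 list 3159. Read counts were not given, so the depth of every library is unknown, and a site without a peak is a site at which none was called. The LK2 H3K27ac libraries held 30641 and 16470 peaks and those of NCI-H520 24619 and 29219. The Brn2 list of NCI-H520 held 1298 peaks, 26.9% of the number in LK2, so that absence from it weighs less than absence from a list of equal length would.

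The values that chose the sites were as follows. Of the 4170 LK2 Brn2 peaks outside the NCI-H520 list, 1818 overlapped Sox2 in both LK2 and LK2_GFP, 525 in LK2_GFP alone and 48 in LK2 alone. Sox2-free sites lay at a median gap of 62.6 kb from the nearest Sox2 peak of the LK2 background (quartiles 17.1 and 164.6 kb), and 977 of them (54.9%) had none within 50 kb. The rule excludes overlap, and the gap of positions drawn at random was not computed for comparison. Just inside the rule, 33 sites had a Sox2 peak at a gap under 200 bp. Their median width was 270 bp, and 42.4% overlapped H3K27ac of LK2 replicate 1. Just outside it, 9 sites overlapped a Sox2 peak by at most 50 bp, with a median width of 385 bp and 55.6% of them acetylated in that library.

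Sox2-free sites were narrow and weak by the authors' own peak score, which orders peaks within the list. Their median width was 293 bp (quartiles 236 and 368 bp), against 339 bp at Sox2-bound and 749 bp at shared sites. Of the Sox2-free sites 11.6% stood in the highest quartile of the LK2 Brn2 list by score and 32.8% in the lowest. The corresponding shares were 18.6% and 21.3% at Sox2-bound sites, and 85.2% and 2.31% at shared sites. The median rank was 3046 for Sox2-free, 2453 for Sox2-bound and 333 for shared sites, and the best Sox2-free site ranked 59. These values come from the list that the choice used and were not tested.

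Many Sox2-free sites stood beside a shared site. At a gap under 5 kb from a shared site lay 468 of them (26.3%), and 387 (21.8%) lay within 1 kb. Only 43 (2.42%) lay between 5 and 50 kb away, and 1268 (71.3%) lay at 50 kb or more. Of the Sox2-bound sites 33 (1.38%) lay within 5 kb of a shared site. Seen from the other side, 280 of the 649 shared sites (43.1%) had a Sox2-free site within 5 kb, 146 of them 1 and 134 of them 2 or more, up to 5. These 280 were the stronger ones, with a median rank of 185.5 and a median width of 1156 bp, against 512 and 540 bp for the other 369 shared sites. Of the 468 neighbouring Sox2-free sites, 351 (75%) lay in the same merged H3K27ac region as the shared site next to them. The rule keeps sites that do not overlap an NCI-H520 Brn2 peak, so peaks that flank one enter by construction, and whether they represent separate binding events was not tested.

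Whether Sox2-free sites carried H3K27ac was asked next, with lists that the choice did not use. They overlapped an H3K27ac peak in 43.3% ± 4.85 of cases (SD, n = 13 lines). The share was 37.5% in LK2 (40.0% and 35.0% in its libraries), 46.4% in NCI-H520 (43.8% and 49.0%), 44.6% in HCC95, 47.8% in KNS62 and 39.9% in HCC2814. Among the lines with H3K27ac alone it was highest in LC-1/SQSF (50.5%), HARA (49.1%) and HCC2279 (46.4%). It was 45.4% in HCC2450, 41.0% in Calu-1, 40.6% in EBC-1, 38.3% in NCI-H2887 and 35.0% in SQ-1. The values of LK2 and NCI-H520 lay within the range of the 11 other lines, and LK2, where the Brn2 sites were mapped, was next to last on the mean of its libraries. That rank depends on the library. LK2 replicate 2 held the fewest H3K27ac peaks of all lists (16470), and the share in replicate 1 (40.0%) lay above those of HCC2814, NCI-H2887 and SQ-1. In the derivatives of LK2 it was 49.5% (LK2_GFP) and 47.8% (LK2_DNp63). Each of these shares carries a Wilson 95% interval of about the width seen in LK2 replicate 1 (37.8 to 42.3%), which covers counting error only.

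**Figure D1:**
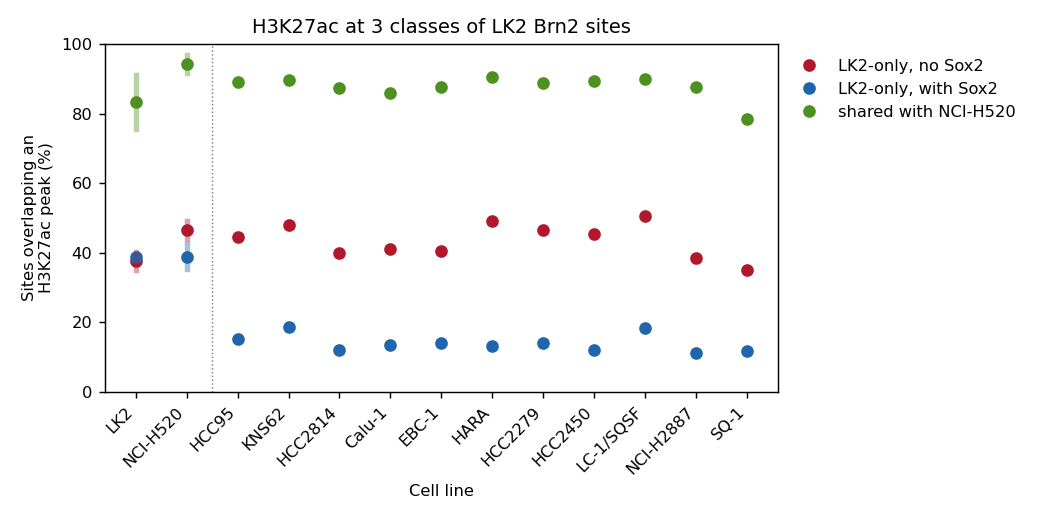
Share of LK2 Brn2 sites that overlap an H3K27ac peak (y axis, percent) in each of the 13 lines (x axis), for Sox2-free, Sox2-bound and shared sites. Points are values per line, bars join the 2 libraries of LK2 and of NCI-H520, and the dotted line separates these lines from the 11 others. Sox2-free sites stay between 35.0% and 50.5% in every line, while Sox2-bound sites reach 38.6% and 38.8% in LK2 and NCI-H520 and at most 18.6% elsewhere.

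Sox2-free and Sox2-bound sites were acetylated about equally often in LK2 and differed widely outside LK2 and NCI-H520. In LK2 the shares were 37.5% at Sox2-free and 38.6% at Sox2-bound sites, and in NCI-H520 46.4% and 38.8%. In the 11 other lines they were 43.5% ± 4.88 at Sox2-free and 13.9% ± 2.53 at Sox2-bound sites (SD, n = 11 lines). Over all 13 lines the Sox2-free sites were higher by 25.6 percentage points on average and higher in 12 of 13 lines (two-sided exact paired permutation test over lines, p = 0.000488, adjusted over 4 tests 0.000977). Shared sites were acetylated in 87.8% ± 3.82 of cases (SD, n = 13 lines), and Sox2-free sites lay below them in 13 of 13 lines, by 44.6 percentage points (difference -44.55, exact p = 0.000244, the smallest possible, adjusted 0.000977). The same sites are read in every line, so these tests concern lines and not sites. Shared sites were wider than Sox2-free sites, with medians of 749 and 293 bp, and 85.2% against 11.6% stood in the highest quartile by score. In that quartile Sox2-free sites were acetylated in 72.9% ± 6.45 (SD) over the 11 other lines, against 87.6% ± 3.35 for all shared sites. Shared sites were not split by quartile, so the part of score and width in the difference from them was not tested.

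The gap between the 2 LK2-only classes itself differed between the sets of lines. The share at Sox2-free sites divided by that at Sox2-bound sites was 0.971 in LK2 and 1.20 in NCI-H520, against 2.57 (KNS62) to 3.77 (HCC2450) in the 11 others. On the log2 scale the mean ratio was 0.11 ± 0.21 in LK2 and NCI-H520 (SD, n = 2 lines) and 1.66 ± 0.18 in the others (n = 11 lines), a difference of -1.55 (exact permutation test over lines, p = 0.0128, the smallest possible, adjusted 0.0128). Without LK2 or without NCI-H520 the test has 1 line on 1 side and cannot go below 0.0833, and the difference was then -1.40 or -1.70. Acetylation of Sox2-bound sites averaged 38.7% ± 0.118 in LK2 and NCI-H520 and 13.9% ± 2.53 in the others, and that of Sox2-free sites 41.9% ± 6.30 and 43.5% ± 4.88. The classes were defined by Sox2 and Brn2 peaks of the LK2 background and Brn2 peaks of NCI-H520. The test sets these same lines apart, so its p-value is not independent of the choice of sites.

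Lines differ in how much H3K27ac was called, and LK2 and NCI-H520 hold the lower share of all 114125 merged H3K27ac regions, 17.8% ± 3.10 against 25.9% ± 3.39. Relative to that share, Sox2-free sites were acetylated 2.40 times as often in LK2 and 2.32 times in NCI-H520, against 1.40 (Calu-1) to 2.15 (HCC2814) times in the 11 others. The mean ratio of 2.36 ± 0.0573 (SD, n = 2 lines) was higher than 1.70 ± 0.216 (n = 11) by 0.664 (exact permutation p = 0.0128, the smallest possible, adjusted 0.0128). This separation did not hold when every list was reduced to the same number of top peaks (difference 0.270, exact p = 0.397). Without the division the difference was -1.55 percentage points (exact p = 0.667). At Sox2-bound sites the same ratio was 2.21 ± 0.378 in LK2 and NCI-H520 and 0.540 ± 0.0864 in the others. Here too the lines set apart are those whose lists chose the sites. Each merged region was acetylated in at least 1 line, so the ratios scale the lines and do not measure enrichment over like sites.

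The average of about 40% arose from an uneven distribution, with most Sox2-free sites acetylated nearly everywhere or nowhere. A peak was present at 430 of them (24.2%, 95% interval 22.2 to 26.2) in all 13 lines, against 6.64% of all merged H3K27ac regions and 20.2% of all LK2 Brn2 sites. The merged regions are not a like measure, since each was acetylated in at least 1 line and 50.67% of them in 1 line only. A further 187 (10.5%) were acetylated in 11 or 12 lines. No peak was present in any line at 554 (31.1%, 29.0 to 33.3), against 28.1% of all LK2 Brn2 sites. In between, 274 (15.4%) were acetylated in 1 or 2 lines and 334 (18.8%) in 3 to 10 lines. Sox2-bound sites held a like share without any acetylated line (33.0%), but 78 (3.26%) acetylated in all 13 and 970 (40.6%) in 1 or 2. Of the shared sites, 72.0% were acetylated in all 13 lines. For LK2 and NCI-H520 a peak in either library counted, and with LK2 replicate 2 as its only library the number of Sox2-free sites acetylated everywhere was 355. It was 283 when an overlap had to cover 50% of the shorter peak, and 236 with the same number of top peaks in every list.

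**Figure D2:**
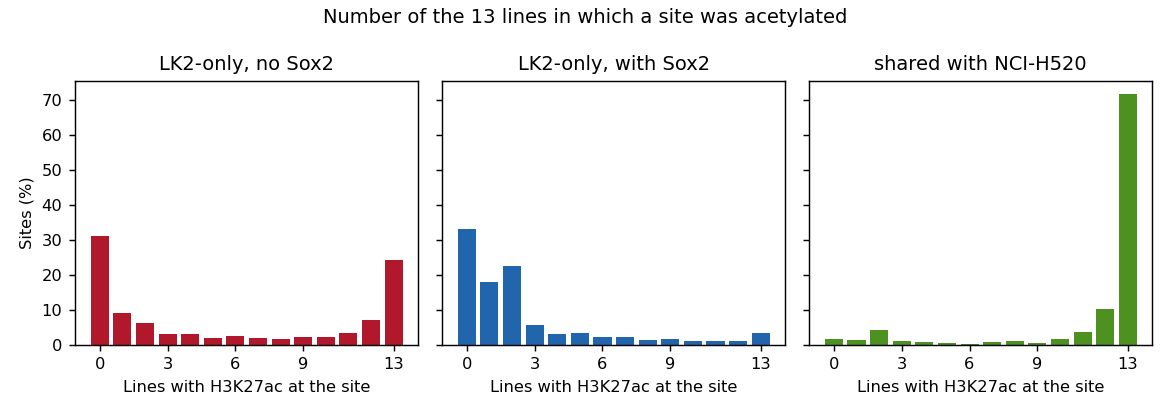
Share of sites (y axis, percent) by the number of the 13 lines with H3K27ac at the site (x axis), for Sox2-free, Sox2-bound and shared LK2 Brn2 sites. Sox2-free sites peak at both ends, with 31.1% in no line and 24.2% in all 13, Sox2-bound sites at 0 to 2 lines, and shared sites at 13.

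Acetylation in 1 line only was less frequent at Sox2-free sites (161, 9.05%) than at Sox2-bound sites (427, 17.86%). It held at 50.67% of all merged H3K27ac regions, each of which was acetylated in at least 1 line. Of the 161 sites, 58 were acetylated in NCI-H520 and 32 in LK2, the most frequent lines, and LC-1/SQSF (23) and HARA (15) followed. Of the 427 such Sox2-bound sites 184 were acetylated in LK2 and 164 in NCI-H520. Of the 113 Sox2-free sites acetylated in 2 lines, 51 (45.1%) had LK2 and NCI-H520 as the pair, against 427 of 543 (78.6%) among Sox2-bound sites. Among the 128 Sox2-free sites acetylated in all lines but 1, the missing line was SQ-1 at 60, LK2 at 17 and NCI-H2887 at 16. A total of 426 Sox2-free sites were acetylated in some other line and in neither LK2 library, and 235 of these only among the 11 other lines.

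Acetylation in LK2 went with acetylation elsewhere at both Sox2-free and Sox2-bound sites. Of the 799 acetylated in LK2, 90.4% were acetylated in NCI-H520 and 66.5% to 83.9% in each of the 11 other lines (median 80.5%). Of the 980 not acetylated in LK2, 19.5% were acetylated in NCI-H520 and 9.39% to 23.3% in each of the others. At Sox2-bound sites acetylated in LK2, 73.9% were acetylated in NCI-H520 and 16% to 29.4% in each of the others (median 19.2%). At Sox2-bound sites not acetylated in LK2 the shares were 20.5% in NCI-H520 and 5.53% to 11.3% in the others (median 7.63%). These shares are descriptions over sites, and the lists differ in length.

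Sox2-free sites with a higher Brn2 score were more often acetylated. In the highest quartile of the LK2 Brn2 list by score, the 207 Sox2-free sites were acetylated in 63.04% of cases in LK2, 73.0% in NCI-H520 and 72.9% ± 6.45 in the 11 others (SD, n = 11 lines). In the lowest quartile, the 584 sites were acetylated in 27.7% of cases in LK2, 37.2% in NCI-H520 and 32.0% ± 4.79 in the others. Sites acetylated in all 13 lines made up 44.9% of the highest quartile and 14.04% of the lowest, and sites acetylated in no line 6.76% and 40.75%. Sox2-bound sites showed no such gradient outside LK2 and NCI-H520, with 13.5% ± 2.0 in the highest and 14.8% ± 3.23 in the lowest quartile over the 11 lines. In LK2 they were acetylated in 52.5% and 34.1%. Quartiles by width gave the same order, with 63.6% ± 6.81 of the widest and 35.0% ± 4.21 of the narrowest Sox2-free sites acetylated in the 11 lines. Score and width ran together, with a median width of 522 bp in the highest and 239 bp in the lowest quartile by score. A wider site meets an overlap of 1 bp more easily, and the parts of score and width were not told apart. Within each quartile by score or by width, Sox2-free sites were more often acetylated than Sox2-bound ones on average over the 13 lines, by 14.1 to 53.0 percentage points. The split into quartiles was chosen after seeing the data. In LK2 the order was reversed in the lowest quartile by score, with 27.7% at Sox2-free and 34.1% at Sox2-bound sites.

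**Figure D3:**
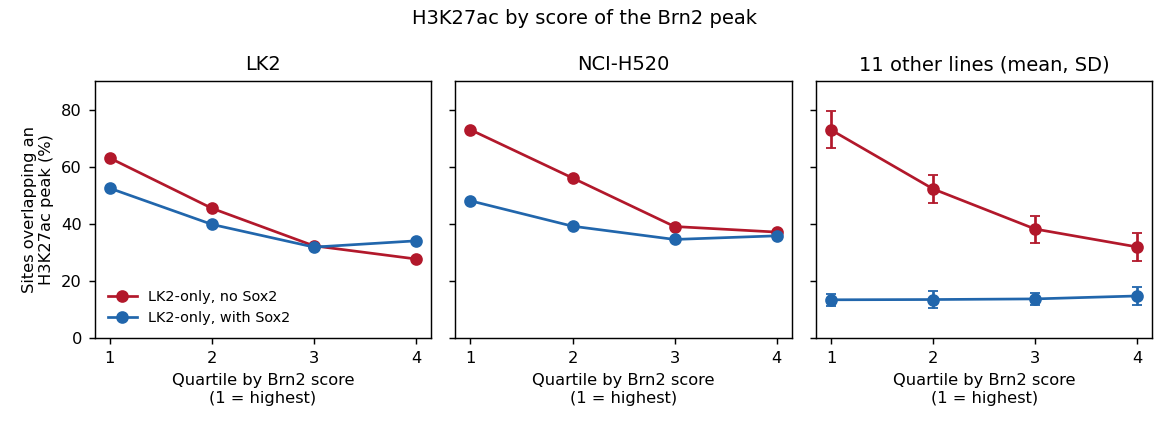
Share of Sox2-free and Sox2-bound sites that overlap an H3K27ac peak (y axis, percent) by quartile of the LK2 Brn2 list by score (x axis, 1 is the highest), in LK2, in NCI-H520 and over the 11 other lines (mean, error bars SD over lines). In the 11 lines Sox2-free sites run from 72.9% in the highest to 32.0% in the lowest quartile, and Sox2-bound sites stay between 13.5% and 14.8%.

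Sox2-free sites next to a shared site were acetylated somewhat differently from the rest. Over the 11 other lines, 50.3% ± 9.35 of the 468 sites within 5 kb of a shared site were acetylated, against 41.1% ± 3.53 of the 1311 farther away (SD, n = 11 lines). In LK2 the order was the other way round, with 34.5% of the near and 38.6% of the far sites. The near sites varied more between lines, with 67.5% in LC-1/SQSF, 60.5% in HARA and 38.2% in SQ-1. The shares also differed within the 5 kb. Of the 387 sites within 1 kb, 29.5% were acetylated in all 13 lines and 16.5% in none, and of the 22 sites at 2 to 5 kb, 4.55% and 68.2%. The mean share over the 11 other lines was 57.4% within 1 kb, 16.95% at 1 to 2 kb (59 sites) and 15.7% at 2 to 5 kb. It was 58.6% at the 43 sites 5 to 50 kb away and 40.5% at 50 kb or more, so the share did not fall evenly with distance.

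The H3K27ac peaks that held Sox2-free sites were wider than the median of their lists in each of the 5 libraries examined, and so were those that held Sox2-bound sites. In LK2 replicate 1 the median width was 1264.5 bp at Sox2-free and 1031 bp at Sox2-bound sites, against 731 bp over all peaks of that list. In LK2 replicate 2 it was 1611 bp and 2117.5 bp, against 1202 bp. In NCI-H520 replicate 1 it was 2151 bp and 3284.5 bp, against 1329 bp, and in replicate 2 it was 2264 bp and 2791 bp, against 1206 bp. In HCC95 it was 2273 bp and 2413 bp, against 1396 bp. Sox2-free sites thus lay in the narrower peaks of the pair in 4 of the 5 libraries. By score, peaks with Sox2-free sites stood at a median of 18.7% (HCC95) to 32.9% (LK2 replicate 2) from the top of their list, and those with Sox2-bound sites at 12.6% (NCI-H520 replicate 1) to 33.3% (LK2 replicate 1). Wide peaks overlap more sites by their size alone. The centre of 21.5% of acetylated Sox2-free sites lay outside the LK2 replicate 1 peak that it overlapped, against 48.9% at Sox2-bound sites, and with LK2 replicate 2 the shares were 16.9% and 23.8%.

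Single Sox2-free sites with the highest scores illustrate the classes, in hg19 coordinates counted from 1. Among sites acetylated in all 13 lines the strongest lay at chromosome 5, 10249343 to 10250662, with a score of 1592.8 and rank 59, and carried a Sox2 peak of HCC2814. The next were chromosome 10, 15138677 to 15139381 (rank 308), chromosome 1, 149782853 to 149784434 (rank 331), chromosome 6, 2764867 to 2765740 (rank 348), and chromosome 18, 77866701 to 77867200 (rank 363). None of these 4 carried Sox2 or p63 in any of the other factor lists. All 5 were acetylated in LK2_DNp63 and LK2_GFP, and the site on chromosome 6 had no peak in LK2 replicate 2.

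Only 14 sites were acetylated in both LK2 libraries and in no other line, and none of them stood among the strongest. The first was chromosome 15, 84749290 to 84749681, with rank 998, a width of 392 bp and a Sox2 peak of LK2 or LK2_GFP at a gap of 49.3 kb. Further ones were chromosome 1, 237141750 to 237142039 (rank 1948), chromosome 2, 220558056 to 220558433 (rank 2029), chromosome 8, 39970508 to 39970911 (rank 2153), and chromosome 6, 106532339 to 106532750 (rank 2252). Of the 14, 10 were acetylated in LK2_DNp63 and 12 in LK2_GFP.

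The 51 sites acetylated in LK2 and NCI-H520 and in no other line began with chromosome 16, 50425953 to 50426532 (rank 545, 580 bp). It was present in all 4 libraries of the pair and in LK2_DNp63 and LK2_GFP, and a Sox2 peak of the LK2 background lay 0.420 kb away. The sites at chromosome 10, 128254086 to 128254519 (rank 691), and chromosome 13, 98980027 to 98980422 (rank 985), carried a Sox2 peak of NCI-H520. Those at chromosome 12, 81417526 to 81418229 (rank 733), and chromosome 17, 63239934 to 63240224 (rank 1143), carried none. The site on chromosome 12 lay 0.0810 kb from a Sox2 peak of the LK2 background.

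The 554 sites without H3K27ac in any line were narrower and weaker than those acetylated everywhere, with median widths of 269 and 323 bp and median ranks of 3483 and 2304. They lay at a median gap of 5.82 kb from the nearest H3K27ac peak of any line (quartiles 0.810 and 23.1 kb), 152 of them (27.4%) at under 1000 bp and 74 (13.4%) at 50 kb or more. In the derivatives of LK2, 23 carried H3K27ac in LK2_DNp63 and 27 in LK2_GFP, and 511 in neither. The strongest lay at chromosome 10, 9642584 to 9643110 (rank 589), which was acetylated in LK2_GFP alone and carried a Sox2 peak of NCI-H520. The others named by rank lay at chromosome 15, 75285851 to 75286633 (rank 723), chromosome 2, 87445147 to 87445595 (rank 746), chromosome 10, 75119462 to 75120216 (rank 772), and chromosome 1, 149658383 to 149658885 (rank 840). None of these 4 carried any other factor peak or H3K27ac in either derivative.

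Sox2-free sites were spread over 1472 bins of 50 kb, of which 1253 held 1 site and 219 held 2 or more (526 sites). The densest bin, at chromosome 17, 37600001 to 37650000, held 8 Sox2-free sites and 2 shared sites. Acetylation there reached at most 10 lines per site, and LK2 replicate 1 had H3K27ac at none of the 8. The bin at chromosome 15, 75250001 to 75300000, held 6, of which 5 were acetylated in no line. Of the 5 bins with 5 sites, those at chromosome 10, 75100001 to 75150000, and chromosome 1, 27200001 to 27250000, held no site acetylated everywhere and none with H3K27ac in LK2_DNp63 or LK2_GFP. Those at chromosome 9, 111850001 to 111900000, and chromosome 16, 150001 to 200000, held 2 sites acetylated in all 13 lines each, and that at chromosome 3, 160100001 to 160150000, held 1. Each of these 7 bins held a shared site and no Sox2-bound site. By chromosome, chromosome 17 held 125 Sox2-free sites (7.03%), against 3.55% of Sox2-bound sites, 7.40% of shared sites and 3.93% of all merged H3K27ac regions. Chromosome 19 held 3.04% of Sox2-free sites, close to the 2.85% of all regions, against 0.376% of Sox2-bound and 6.01% of shared sites. Chromosome 8 held 6.58% of Sox2-free sites, against 10.4% of Sox2-bound sites, 3.24% of shared sites and 4.56% of all regions. Copy number of the lines was not measured, and its part in these counts was not tested.

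Sox2 in other lines was found at few Sox2-free sites. Sox2 of NCI-H520 overlapped 106 of 1779 (5.96%, 95% interval 4.95 to 7.16), Sox2 of HCC95 89 (5.0%, 4.08 to 6.12), Sox2 of HCC2814 36 (2.02%, 1.47 to 2.79) and Sox2 of KNS62 34 (1.91%, 1.37 to 2.66). These lists differ in length, with 12048 Sox2 peaks in NCI-H520, 14048 in HCC95, 7511 in HCC2814 and 8907 in KNS62. With the same number of top peaks in every list the shares were 1.52% for NCI-H520, 0.956% for HCC95, 1.12% for HCC2814 and 0.562% for KNS62, and HCC2814 then stood above HCC95. At Sox2-bound sites the shares in the full lists were 44.8% for NCI-H520, 16.1% for HCC95, 12.8% for HCC2814 and 12.4% for KNS62. At all merged H3K27ac regions they were 6.91%, 8.82%, 4.88% and 6.27% in the same order of lines. Those regions are not a like measure. Each was acetylated in at least 1 line, and the H3K27ac lists had median peak widths of 530 to 1645 bp, against 293 bp for Sox2-free sites. The same holds for the shares of regions with Sox2 or p63 of LK2_DNp63 given below. The classes were chosen by Sox2 of the LK2 background and each line had 1 Sox2 library, so no test was made. None of the 4 lines had Sox2 at 1581 Sox2-free sites (88.9%). In 148 cases 1 line had it, NCI-H520 at 79 and HCC95 at 48, and 2 sites had Sox2 in all 4.

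Where Sox2 of another line was present, the site was more often acetylated in that line. Sox2 of NCI-H520 lay at 8.87% (7.20 to 10.9) of the 913 Sox2-free sites acetylated there and at 2.89% (1.96 to 4.23) of the 866 that were not. In HCC95 the shares were 8.45% and 2.23%, in HCC2814 3.39% and 1.12%, and in KNS62 2.71% and 1.18%. At Sox2-bound sites acetylated in the line it was called at 67.2% in NCI-H520, 57.9% in HCC95, 47.3% in HCC2814 and 41.9% in KNS62. By breadth, Sox2 of NCI-H520 was most frequent at Sox2-free sites acetylated in 1 or 2 lines (9.85%) and Sox2 of HCC95 and KNS62 at those acetylated in 3 to 10 lines (8.38% and 5.39%). Other bins came close for NCI-H520 (7.91% at all 13 lines) and HCC95 (8.02% at 11 or 12 lines, 6.98% at all 13). The Wilson intervals of these bins overlapped those of the highest, and differences between bins were not tested.

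**Figure D4:**
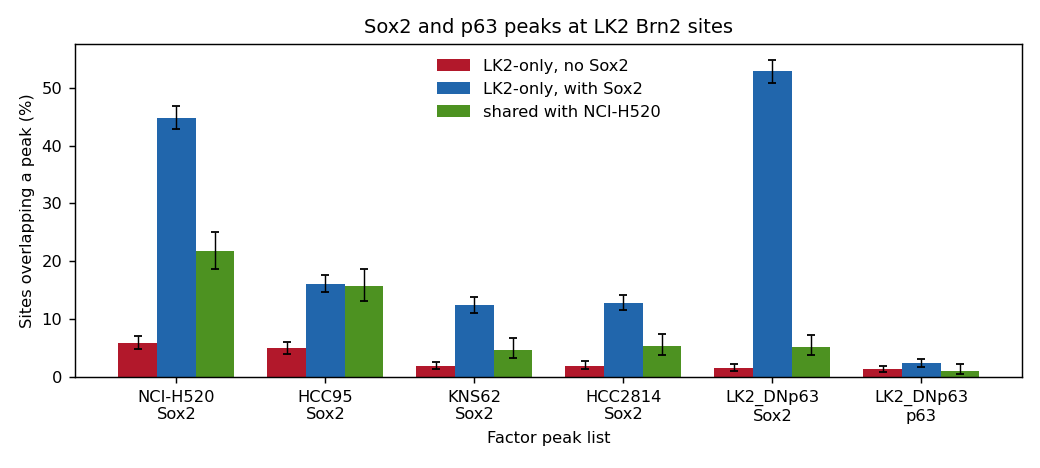
Share of Sox2-free, Sox2-bound and shared LK2 Brn2 sites that overlap a peak (y axis, percent) of each Sox2 or p63 list not used to choose them (x axis). Error bars are Wilson 95% intervals and cover counting error only. Sox2-free sites reach at most 5.96%, while Sox2-bound sites reach 44.8% in NCI-H520 and 52.8% in LK2_DNp63.

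In LK2_DNp63, Sox2 peaks were found at 29 Sox2-free sites (1.63%, 1.14 to 2.33), against 52.8% of Sox2-bound sites and 2.60% of all merged H3K27ac regions. None of these 29 was acetylated in 11 or more of the 13 lines, and 15 were acetylated in no line. Of all Sox2-free sites 10.5% were acetylated in 11 or 12 lines, 24.2% in all 13 and 31.1% in none. H3K27ac was present at 16 of the 29 (55.2%) in LK2_DNp63 and at 10 (34.5%) in LK2_GFP, against 47.8% and 49.5% of all Sox2-free sites. Peaks of p63 lay at 24 Sox2-free sites (1.35%, 0.908 to 2.0), 57 Sox2-bound sites (2.38%, 1.84 to 3.08) and 2.13% of all H3K27ac regions. Of the 24, 17 (70.8%) were acetylated in LK2_DNp63 and 14 (58.3%) in LK2_GFP. The mark was gained at 4, which is 40.0% (16.8 to 68.7) of those without it in LK2_GFP, against 9.12% of all Sox2-free sites. It was lost at 1 of the 14 (7.14%, 1.27 to 31.5), against 12.7%.

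H3K27ac at Sox2-free sites was called at similar shares in the derivatives of LK2. It was present at 850 sites (47.8%) in LK2_DNp63 and at 880 (49.5%) in LK2_GFP. Both libraries held it at 768 sites, LK2_GFP alone at 112 (lost) and LK2_DNp63 alone at 82 (gained). The loss came to 12.7% (95% interval 10.7 to 15.1) of the sites acetylated in LK2_GFP. Of all LK2 Brn2 sites acetylated in LK2_GFP 18.1% were lost, and of all LK2_GFP H3K27ac peaks 26.5%. The gain came to 9.12% (7.41 to 11.2) of the sites not acetylated in LK2_GFP, against 9.36% of all such LK2 Brn2 sites. Counted instead over the 850 Sox2-free sites acetylated in LK2_DNp63, 82 were absent from LK2_GFP, against 26.6% of all LK2_DNp63 H3K27ac peaks. Sox2-bound sites lost 357 of 1231 (29.0%, 26.5 to 31.6) and gained 8.79% of those not acetylated in LK2_GFP, and shared sites lost 3.65%. With 1 library of each derivative, no test between them was possible.

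The lost and gained shares have to be read against the unmodified LK2 libraries. Of the Sox2-free sites acetylated in LK2_GFP, 24.7% were absent from LK2 replicate 1 and 33.9% from LK2 replicate 2, more than from LK2_DNp63. The same held for the other classes. At Sox2-bound sites the shares were 35.4% and 31.6%, against 29.0% for LK2_DNp63, and at shared sites 4.48% and 19.9%, against 3.65%. With LK2 replicate 1 or 2 in place of LK2_GFP, the gain at Sox2-free sites was 18.7% or 24.6%, and the loss 8.71% or 9.16%. LK2_DNp63 and LK2_GFP carry the same code in their H3K27ac descriptions, which the LK2 libraries do not. Among the 520 Sox2-free sites acetylated in LK2_GFP and both LK2 libraries, 19 (3.65%, 2.35 to 5.64) were absent from LK2_DNp63, against 122 of 691 (17.7%, 14.99 to 20.7) Sox2-bound sites. Of the 825 Sox2-free sites acetylated in none of these 3 libraries, 56 (6.79%) carried H3K27ac in LK2_DNp63, against 76 of 1000 (7.60%) Sox2-bound sites.

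The lost share was lower at sites acetylated in more of the 13 lines, LK2 included. Of the Sox2-free sites acetylated in LK2_GFP, 5 of 423 (1.18%) were lost where all 13 lines carried the mark and 6 of 169 (3.55%) where 11 or 12 did. The share was 43 of 166 (25.9%) at 3 to 10 lines, 38 of 95 (40.0%) at 1 or 2 lines and 20 of 27 (74.1%) at none. At equal breadth Sox2-bound sites were lost in 0, 6.12%, 18.2%, 36.2% and 52.0% of cases in the same order, so that Sox2-free sites were not the less often lost among sites acetylated in 10 lines or fewer. The 12.7% and 29.0% over all sites thus stand beside different mixtures of breadth, and the difference between the classes was not tested.

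**Figure D5:**
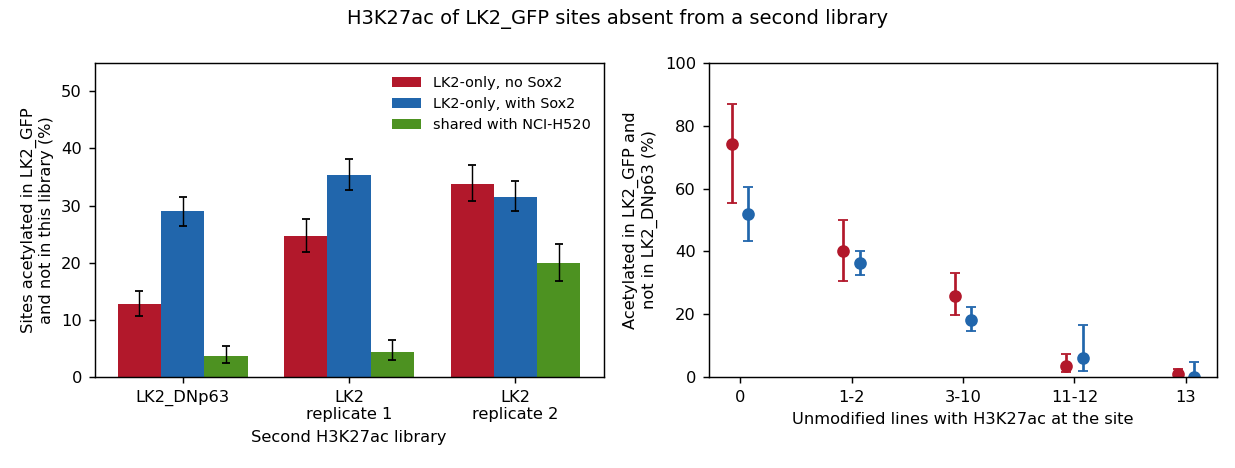
Left, share of sites acetylated in LK2_GFP that had no H3K27ac peak (y axis, percent) in LK2_DNp63 or in either LK2 library (x axis), for the 3 classes of LK2 Brn2 sites. Right, share lost in LK2_DNp63 (y axis, percent) by the number of unmodified lines with H3K27ac at the site (x axis), with Sox2-free sites to the left of Sox2-bound ones. Error bars are Wilson 95% intervals. On the left Sox2-free sites run from 12.7% to 33.9%, and on the right from 74.1% at no line to 1.18% at 13.

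The 19 sites lost in LK2_DNp63 from all 3 libraries of the LK2 background were led by chromosome 3, 194451135 to 194451468 (rank 849), which was acetylated in 8 of the 13 lines and carried Sox2 of HCC95 and p63 of LK2_DNp63. The next were chromosome 2, 74208152 to 74208736 (rank 1157, 8 lines), chromosome 10, 80383323 to 80383691 (rank 1322, 6 lines), and chromosome 12, 89355860 to 89356223 (rank 1915, LK2 and NCI-H520). The fifth was the site on chromosome 8 already named among those of LK2 alone. The 56 gained sites were led by chromosome 12, 118455342 to 118456094 (rank 545), which was acetylated in 10 of the 13 lines, NCI-H520 among them. Also gained were chromosome 1, 151745342 to 151746515 (rank 1107, 4 lines), chromosome 2, 170684821 to 170685288 (rank 1230, 7 lines), and chromosome 2, 20099782 to 20100264 (rank 1411, 10 lines). The site at chromosome 7, 123876423 to 123876667 (rank 1316), was acetylated neither in an unmodified line nor in LK2_GFP, and carried Sox2 and p63 of LK2_DNp63.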

How the data were processed

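The analysis started from 27 peak lists, 1 per library, of the 43 samples in the labels. The 16 inputs were not analysed here. The alignment used Bowtie2 and the build was hg19 (GRCh37), both per the submitters' processing notes. Peak names begin with MACS, but the caller's version, threshold and handling of inputs were not stated. The deposited score of a peak is the authors' value, of unstated scale, and was used to order peaks of the same list. Depth is unknown.

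Peaks on chromosomes 1 to 22 and X were overlapped by at least 1 bp (Python 3.11.15, numpy 2.4.6, pandas 2.3.3, scipy 1.17.1). Each line gave 1 value, the mean of both libraries for LK2 and NCI-H520, and for line counts per site a peak in either library sufficed. Alternatives were a larger minimum overlap, sites of fixed width, equal numbers of top peaks, stricter choices of sites and leaving out libraries or lines. Classes were compared by exact permutation tests over lines (sign flips within lines, or reassignment of 2 of 13 lines), adjusted over 4 tests (Benjamini-Hochberg) with a threshold of 0.05. Interval functions and tests were checked on simulated data. Intervals on shares are Wilson 95% intervals for counting error.

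The sites and comparisons were chosen with earlier results of these data known. Sites named by position are the 5 highest-scoring of each stated class, and the densest bins of 50 kb (7 bins, with ties). No genome or annotation of hg19 was used here, so no genes or sequences are given, and planned motif and gene list counts were not run.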

Additional observations from a re-analysis of the deposited data

Results flagged for a closer look

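The ratio of acetylated shares, Sox2-free over Sox2-bound sites, differed between LK2 and NCI-H520 and the 11 other lines by -1.55 on the log2 scale (exact permutation p = 0.0128, adjusted 0.0128), with both lines below every other line. Lists of LK2 and NCI-H520 also defined these classes, so the test is not independent of the choice of sites. Among the 8 lines with H3K27ac ChIP alone, LC-1/SQSF stood above the others at Sox2-bound sites, with 18.2% acetylated, and SQ-1 stood below them at shared sites, with 78.4%. At Sox2-free sites the same lines were the highest (50.5%) and the lowest (35.0%) of the 8, by less than the limit for a single outlying sample. Chance alone sets apart about 1 group in 20 by this measure.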

How the results depend on the processing

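Sox2-free sites stayed above Sox2-bound sites by 14.1 to 53.0 percentage points under all 33 alternatives, and below shared sites under all 25 (differences of -46.7 to -31.7 points). The difference from shared sites was smallest, at -31.7 points, in the upper 50% of the Brn2 list by score. The mean share of acetylated sites per line (43.3%) was 38.1% when an overlap had to cover 50% of the shorter peak, 36.8% with the same number of top peaks in every list and 58.7% in the upper 50% of the Brn2 list by score. Under these settings 283, 236 and 230 sites, of the 430, were acetylated in every line, and in the upper 50% of the list 118 were acetylated in none. The difference in acetylation relative to all regions (0.664) was 0.270 with equal numbers of top peaks (exact permutation p = 0.397) and -1.55 percentage points without the division, the reverse direction (exact p = 0.667).

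Loss in LK2_DNp63 (12.7%) was 16.0% with the larger overlap, 8.98% in the upper 50% of the list, and 8.71% or 9.16% with LK2 replicate 1 or 2 in place of LK2_GFP. Gain (9.12%) was 11.4%, 13.3%, 18.7% and 24.6% under the same settings. With equal numbers of top peaks, Sox2 lay at 1.52% of sites in NCI-H520, 0.956% in HCC95, 0.562% in KNS62 and 1.12% in HCC2814. In the upper 50% of the list the share was 7.19% in NCI-H520, 0.958% in KNS62 and 0.958% in LK2_DNp63. Without Sox2-free sites within 5 kb of a shared site, an alternative chosen after seeing the data, it was 7.78% in NCI-H520 and 6.25% in HCC95. With no Sox2 peak allowed within 1000 bp it was 1.02% in LK2_DNp63. The cause of these shifts was not tested.

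Leaving out 1 library or line at a time gave 42.7 to 43.95% for the mean share, 24.7 to 27.8 points above Sox2-bound and -44.98 to -44.1 points against shared sites. It gave 355 to 490 sites acetylated everywhere and 554 to 612 acetylated nowhere. The difference relative to all regions ran from 0.489 (without LK2 replicate 2) to 0.955 (without LK2 replicate 1), and the log2 difference of the gap from -1.70 to -1.40. Without LK2 or NCI-H520 neither of these passed 0.05, since 1 line against 11 cannot go below 0.0833. No paired analysis was possible because replicate numbers mark libraries within a line, which were averaged, and do not link samples of different lines. The paired tests given above pair the classes of sites within each line. Unknown depth, 1 Brn2 library per line and the short NCI-H520 Brn2 list limit every absence given here.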
